A study of Homo sapiens with 3 samples.

Results

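Genes of the lung metastasis signature were examined in MDA-MB-231 breast cancer cells with a silenced RRAS2 gene. The set held 9 genes of the 24916 measured on each array, namely SPARC, TNC, LTBP1, ANGPTL4, IL13RA2, VCAM1, PTGS2, FSCN1 and ID1. The rule for the set names genes of that signature and uses no measured value, although it was drawn up with earlier results of these data known. Each gene was found in the deposited table by its Ensembl gene identifier. MDA-MB-231, a human cell line long in culture, lacks hormone receptors and HER2 amplification, and the derivative used here carries the name Luc. The product of RRAS2, R-Ras2 or TC21, is a GTPase related to the classical RAS proteins. All 3 arrays belong to 1 group, KDRRAS2.p1. Its cells were a single pool transduced with a lentivirus for the short hairpin RNA TRCN0000047025, and they were kept in exponential growth. The labels number the arrays as biological replicates 1 to 3 of this pool. They do not say what was kept separate between replicates, so the spread may be partly technical. It also leaves out differences between transduced pools. The design names control-hairpin cells too, which were not analysed here, so no value below shows an effect of RRAS2 loss. Beyond the 9 genes no row of the table could be given a symbol, so neither the knockdown nor the identity of the line was checked against its own genes.

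The lung metastasis signature is a list of genes whose expression marked sublines of this same cell line that had been selected in mice for growth in the lung. Its products act mostly outside the cell or at its surface. They include matrix proteins that lung-colonising cells deposit, factors that act on blood vessels, and an adhesion receptor. A few act inside the cell, on the actin skeleton, on transcription or in making prostaglandins. The genes differ in what controls them, and several are known targets of TGF-beta or NF-kappaB signalling.

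Of the 9 genes, 8 had a signal above the array's own median over all genes on all 3 arrays, and VCAM1 lay below it on all 3. Over all genes that share was 48.6% (12111 of 24916). The array medians lay between 6.80 and 6.84 log2 units. The median divides brighter from dimmer signals and is not a measured background. With the stricter limit of each array's upper quartile (9.04 to 9.05), 5 of the 9 genes were above it on all 3 arrays, against 23.9% of all genes. These were SPARC, TNC, IL13RA2, FSCN1 and ID1. Values are the authors' RMA values, read as log2, and every fold below rests on that reading. A signal depends on the probes of its gene, so the position of a gene on the array is given as a description, and the genes are not ranked against each other by RNA abundance.

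**Figure D1:**
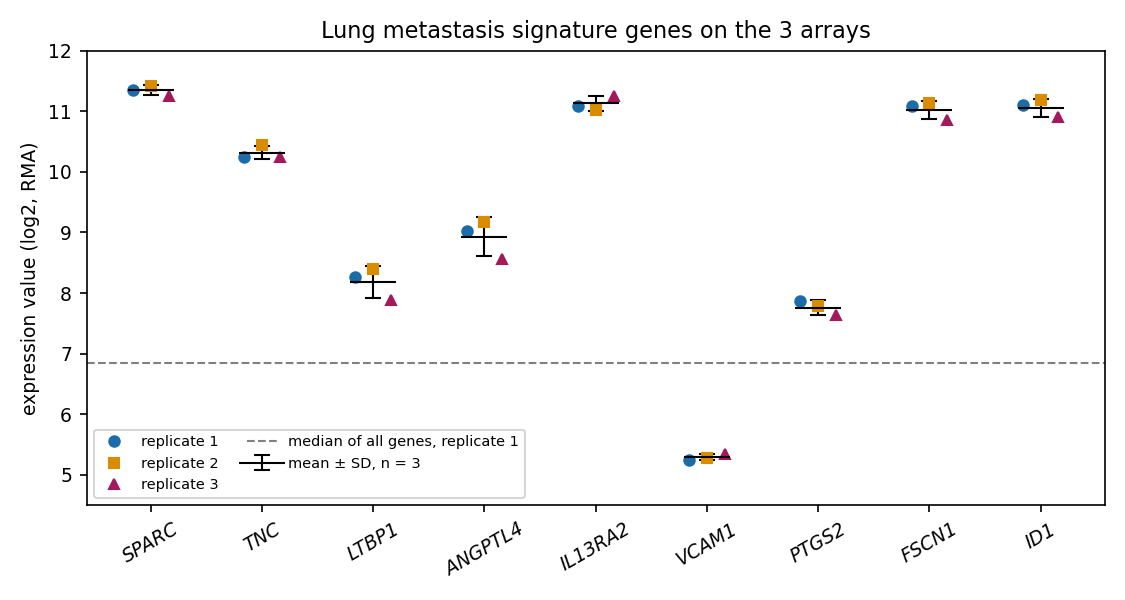
Expression value (log2, vertical axis) of the 9 signature genes (horizontal axis) on each array. Points are the 3 replicates, black bars the mean ± SD (n = 3), and the dashed line is the median of all genes in replicate 1 (6.84). Only VCAM1, at 5.25 to 5.35, lies below the line.

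The upstream sequences of 5 genes are shown, for the genes described most closely below: VCAM1 and PTGS2, with the lowest means of the set, ANGPTL4 and LTBP1, with the widest spreads, and SPARC, with the highest mean. Each is the 250 bases before an annotated start, 5′ to 3′ on the gene's own strand, from RefSeq (GRCh38.p14). Capitals mark exact matches, on either strand, to TATAAA (a form of the TATA box) or to the NF-kappaB consensus GGGRNNYYCC. They also mark TGACGTCA (the cyclic AMP response element, CRE) and TGANTCA (the AP-1 site). R stands for A or G, Y for C or T, and N for any base.
VCAM1 (chr1:100719492-100719741, plus strand): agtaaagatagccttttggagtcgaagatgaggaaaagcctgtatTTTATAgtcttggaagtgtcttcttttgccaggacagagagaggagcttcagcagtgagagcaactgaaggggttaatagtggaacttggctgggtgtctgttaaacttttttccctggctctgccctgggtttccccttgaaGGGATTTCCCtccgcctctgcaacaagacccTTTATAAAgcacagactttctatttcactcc
PTGS2 (chr1:186680424-186680673, minus strand): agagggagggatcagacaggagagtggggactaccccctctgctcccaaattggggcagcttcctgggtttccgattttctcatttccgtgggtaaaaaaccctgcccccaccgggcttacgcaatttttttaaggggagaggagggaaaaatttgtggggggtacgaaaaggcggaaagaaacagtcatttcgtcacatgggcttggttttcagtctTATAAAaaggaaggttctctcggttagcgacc
ANGPTL4 (chr19:8363905-8364154, plus strand): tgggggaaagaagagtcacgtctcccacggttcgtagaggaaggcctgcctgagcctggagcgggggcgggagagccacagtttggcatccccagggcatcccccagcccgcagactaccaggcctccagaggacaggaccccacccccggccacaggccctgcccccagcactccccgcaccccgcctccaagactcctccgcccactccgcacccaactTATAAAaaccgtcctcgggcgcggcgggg
LTBP1 (chr2:32946703-32946952, plus strand): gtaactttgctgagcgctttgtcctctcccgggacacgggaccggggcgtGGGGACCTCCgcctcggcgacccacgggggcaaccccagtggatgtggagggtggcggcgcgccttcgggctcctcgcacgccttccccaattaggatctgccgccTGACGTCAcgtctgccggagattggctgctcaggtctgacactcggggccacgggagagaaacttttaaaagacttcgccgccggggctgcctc
SPARC (chr5:151686916-151687165, minus strand): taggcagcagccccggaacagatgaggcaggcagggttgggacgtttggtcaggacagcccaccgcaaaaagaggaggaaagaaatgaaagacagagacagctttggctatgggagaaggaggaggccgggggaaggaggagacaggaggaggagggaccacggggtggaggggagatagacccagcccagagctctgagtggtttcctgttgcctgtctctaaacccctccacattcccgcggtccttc

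The table of upstream sequences had entries for 7 of the 9 genes; FSCN1 and IL13RA2 had none. TATAAA was found in VCAM1, PTGS2, ANGPTL4 and ID1, beginning 29 to 33 bases before the start in each, and 10.7% of all 35116 upstream sequences held it. In VCAM1 and ID1, a pair of matches on opposite strands overlapped there, and VCAM1 had another at 205 bases. The NF-kappaB consensus was found in VCAM1, at 62 bases before the start, and in LTBP1, at 200 bases, against 9.96% of all upstream sequences. LTBP1 has 3 annotated starts in the table, of which the first is printed. Its sequence also held TGACGTCA at 94 bases, found in 1.65% of all upstream sequences, and those before the other two held none of the 4 patterns. SPARC and TNC held none of the 4 either, and TGANTCA was found in none of the 7 genes and in 6.57% of all upstream sequences. A match describes letters in this window only. Other forms of these elements were not counted, so a sequence without a match may still hold one. The 4 patterns were chosen after the sequences were seen, and the shares count single upstream sequences, so no enrichment is read from them. Among the genes with a match, only VCAM1 lay below the array median, and no link between matches and level is read from this.

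Among matrix proteins, SPARC (ENSG00000113140), a collagen-binding glycoprotein secreted by remodelling tissues, was at 11.35, 11.42 and 11.26 on the arrays of replicates 1 to 3. Its mean was 11.35 ± 0.08 (SD, n = 3), and at least 94.7% of all genes had a lower signal on each array. The 3 arrays lay within a 1.12-fold range. TNC (ENSG00000041982) encodes tenascin-C, a large matrix glycoprotein found in wounds and in metastatic niches. It was at 10.25, 10.45 and 10.25 in replicates 1 to 3, with a mean of 10.32 ± 0.11 (SD, n = 3). Replicate 2 was the higher array for TNC, and replicates 1 and 3 differed by 0.004 log2 units.

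LTBP1 (ENSG00000049323) encodes latent TGF-beta binding protein 1, which anchors the inactive TGF-beta complex in the matrix. It stood at 8.26 and 8.40 in replicates 1 and 2 but at 7.89 in the third replicate, with a mean of 8.18 ± 0.26 (SD, n = 3). Replicate 3 was the low array, and the range of 0.511 log2 units is a 1.43-fold difference. Between 62.3% and 67.6% of all genes had a lower signal, so LTBP1 sat between the median and the upper quartile on each array.

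ANGPTL4 (ENSG00000167772) is a secreted inhibitor of lipoprotein lipase that is induced by TGF-beta and by hypoxia and can loosen contacts between endothelial cells. Its value was 9.03 in replicate 1, 9.18 in replicate 2 and only 8.57 in replicate 3, for a mean of 8.93 ± 0.32 (SD, n = 3). The low array was again that of replicate 3. The range of 0.614 log2 units, or 1.53-fold, was the widest of the 9 genes. The position of ANGPTL4 on the array followed, with 76.5% of all genes lower in replicate 2 and 69.4% lower in replicate 3.

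IL13RA2 (ENSG00000123496), a cell-surface receptor that binds interleukin-13 and is often described as a decoy, was at 11.09, 11.03 and 11.26 in replicates 1 to 3 (mean 11.13 ± 0.12, SD, n = 3). In contrast to ANGPTL4 and LTBP1, its highest array was replicate 3. VCAM1 (ENSG00000162692) is an adhesion receptor that binds integrins on white blood cells. Its values were 5.25, 5.28 and 5.35 (mean 5.29 ± 0.05, SD, n = 3), which lies -1.58 to -1.45 log2 units from the array medians. Between 28.1% and 29.7% of all genes had a still lower signal. A value below the median does not show that the gene was silent, and differences near the lower end of RMA values are compressed.

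PTGS2 (ENSG00000073756) encodes cyclooxygenase-2, the inducible enzyme that starts prostaglandin synthesis. It was measured at 7.87, 7.78 and 7.64 in replicates 1 to 3, with a mean of 7.76 ± 0.12 (SD, n = 3). This placed PTGS2 0.84 to 1.03 log2 units above the medians, the smallest distance among the 8 brighter genes. FSCN1 (ENSG00000075618) encodes fascin, which bundles actin filaments in the protrusions of migrating cells. It was at 11.09, 11.13 and 10.85 in replicates 1 to 3 (mean 11.02 ± 0.15, SD, n = 3). ID1 (ENSG00000125968), which holds basic helix-loop-helix transcription factors away from DNA, was at 11.10, 11.19 and 10.90 (mean 11.06 ± 0.15, SD, n = 3). Both genes were lowest in replicate 3, by 1.22-fold from their highest array.

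**Figure D2:**
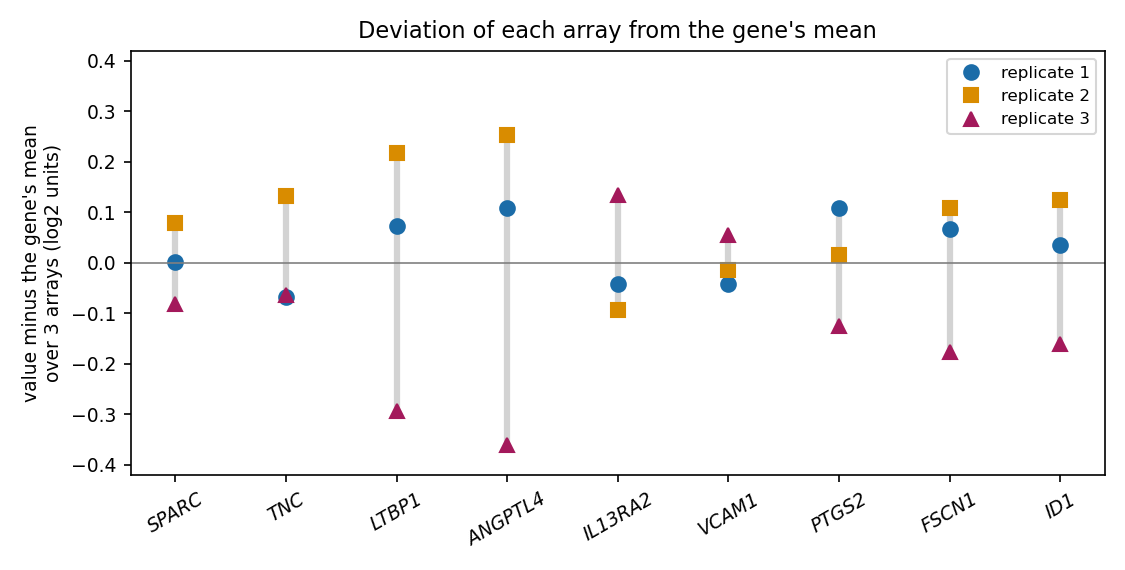
Value on each array minus the gene's own mean over the 3 arrays (log2 units, vertical axis) for the 9 genes. Grey bars span lowest to highest. Replicate 3 is the lowest point for SPARC, LTBP1, ANGPTL4, PTGS2, FSCN1 and ID1, and the highest for IL13RA2 and VCAM1.

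Across all 3 arrays the spread between replicates was larger for these genes than for the typical gene. Beside all genes, the excess in median SD was smallest when replicate 3 was left out. That replicate was farthest from the middle value for 8 of the 9 genes, so leaving it out lowers their SDs by construction. Across the 9 genes the SD between arrays had a median of 0.120 log2 units, against 0.086 for all genes, and the SDs went from 0.051 (VCAM1) to 0.321 (ANGPTL4). Without replicate 3 the median SD was 0.063 for the 9 genes and 0.060 for all genes. It was 0.161 and 0.079 without replicate 1, and 0.140 and 0.072 without replicate 2. For the genes above the median on all 3 arrays it was 0.087, and 0.053 without replicate 3. The 8 signature genes among them, which leave out VCAM1, had a median SD of 0.133 over all 3 arrays. Beside the genes above the median, the 0.063 of all 9 signature genes still left some excess without replicate 3. Since spread varies with level, all genes were also cut into 10 equal bands of mean level, and each signature gene was set beside its own band. The SD was above the median of the band for 8 of the 9 genes, against 50.0% of all genes by construction, with VCAM1 as the exception. Without replicate 3 this held for 6 of the 9, and without replicate 1 or without replicate 2 for 7. ANGPTL4 had a larger SD than 98.4% of its band (2492 genes, median SD 0.094), and LTBP1 a larger one than 95.9% of its band (2491 genes, median SD 0.098). For FSCN1 this share was 91.4% and for ID1 89.5%, both in the top band, where the median SD was 0.069. The share was 81.3% for IL13RA2, also in the top band, and 67.9% for TNC. SPARC and PTGS2, at 58.1% and 61.4%, were near the middle of their bands.

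**Figure D3:**
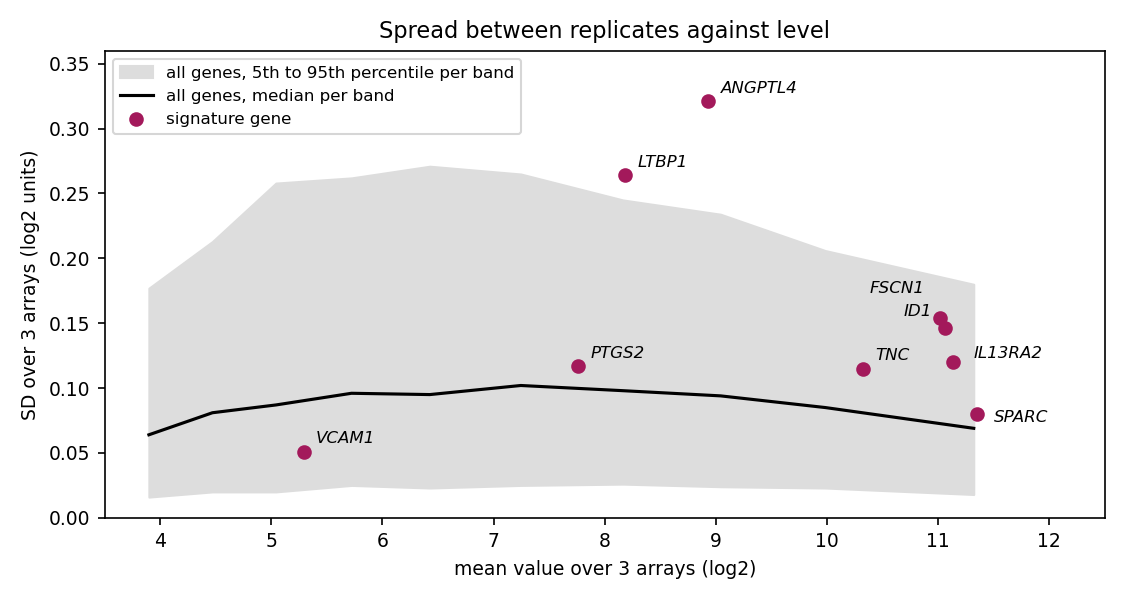
SD over the 3 arrays against mean value, both in log2 units. The black line and grey area give the median and the 5th to 95th percentile of all genes in each of 10 bands of mean level, and red points are the 9 signature genes. ANGPTL4 (SD 0.321) and LTBP1 (0.264) lie above the grey area, and VCAM1 (0.051) lies below the line.

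A range over 0.5 log2 units was found for 2 of the 9 genes, ANGPTL4 and LTBP1, against 3.52% of all genes (876 of 24916) and 2.77% of those above the median on all 3 arrays. A range over 0.25 log2 units was found for 4, these 2 with FSCN1 and ID1, against 25.9% of all genes. LTBP1 was at the edge of the 0.5 limit, with 0.495 after quantile normalisation, which leaves 1 gene over 0.5. In both ANGPTL4 and LTBP1 the range ran between replicate 2, the highest, and replicate 3, the lowest. Without replicate 3, or without replicate 2, 0 of the 9 genes ranged over 0.5 log2 units. The other 7 genes ranged from 0.099 to 0.286 log2 units.

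Replicate 3 was the array that stood apart for most of the set. It was farthest from the middle of the 3 values for 8 of the 9 genes, with TNC as the exception. The share was 41.7% of all genes and 50.0% of the genes above the median on all 3 arrays. For SPARC the margin was small, as replicates 2 and 3 differed from replicate 1 by 0.078 and -0.083 log2 units. The count was 7 after quantile normalisation or centring on the median. The median absolute difference over the 9 genes was 0.089 log2 units between replicates 1 and 2, 0.197 between replicates 1 and 3, and 0.228 between replicates 2 and 3. Over the 12111 genes above the median on all 3 arrays these values were 0.074, 0.107 and 0.129. Replicate 3 lay apart for brighter genes in general, and the signature genes share the same 3 RNA samples. Their counts are therefore not independent of that pattern or of each other.

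Most, but not all, of the genes were lower in replicate 3. Replicate 3 was the lowest array for 6 of the 9 genes, against 37.9% of all genes and 39.4% of those above the median. The difference of replicate 3 from the mean of replicates 1 and 2, a measure chosen after the values were seen, was -0.54 log2 units for ANGPTL4 (0.69-fold) and -0.44 for LTBP1 (0.74-fold). Of the genes above the median, 0.685% had a more negative difference than ANGPTL4 and 1.51% a more negative one than LTBP1. The difference was -0.26 for FSCN1, -0.24 for ID1, -0.19 for PTGS2, -0.12 for SPARC and -0.10 for TNC. VCAM1 went the other way at 0.08, and IL13RA2 at 0.20 (1.15-fold). The median difference over all genes was -0.007. Each of the 9 differences kept its sign under quantile, median and cyclic loess normalisation. With 1 array on the one side and 2 on the other, no test of these differences was made. Whether culture, RNA preparation or hybridisation moved with replicate 3 was not tested.

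**Figure D4:**
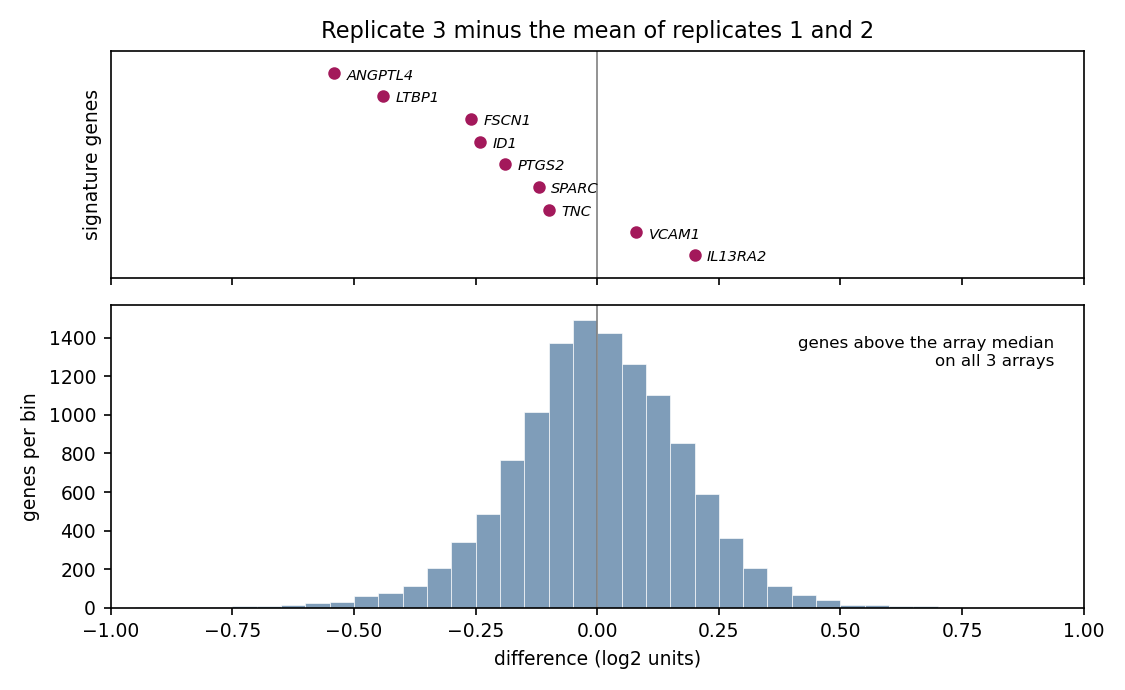
Value in replicate 3 minus the mean of replicates 1 and 2 (log2 units, horizontal axis). The upper panel shows the 9 signature genes in order of their difference, and the lower panel counts the 12111 genes above the median on all 3 arrays in bins of 0.05 log2 units. ANGPTL4 (-0.54) and LTBP1 (-0.44) lie in the left tail, and IL13RA2 (0.20) lies to the right of zero.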

How the data were processed

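Per the labels' protocols, total RNA was isolated with Trizol, biotin-labelled and run on Affymetrix microarrays. The authors deposited 1 table of expression values, made with RMA and the affy package per the submitters' processing notes. For the array model, probe definition and genome build, the sources used here give no name. The table names no scale, and the deposited values were read as log2, as RMA gives them. RMA brings the arrays to nearly the same distribution, so an overall change in RNA content cannot be seen. The 9 genes are named by the pairing of identifier and symbol that came with their choice. The RefSeq gene table used here held 59792 genes, 0 of them with an Ensembl identifier. It therefore could not check this pairing or name any other row. The level of RRAS2, line markers and the rest of the signature are not given for that reason.

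For each gene the mean, SD and range over the arrays, the farthest and lowest array, and the share of genes with a lower value were computed, and SDs were compared within 10 equal bands of mean level. All 9 genes are named. Upstream sequences were searched for 4 patterns on both strands; these were chosen after the sequences were seen, and the NF-kappaB consensus replaced looser forms. The 9 genes were picked as members of a signature, without a rule on their values, but they, the lists and the measures were chosen with earlier results of these data known. No significance test was made, because there is 1 group. Depth is not defined for arrays, and n = 3 limits precision. Alternatives were quantile, median and cyclic loess normalisation, other limits, and leaving out each replicate. Python 3.11.15 (numpy 2.4.6, pandas 2.3.3) and R 4.3.3 (limma 3.58.1) were used.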

Additional observations from a re-analysis of the deposited data

How the results depend on the processing

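The 3 other normalisations moved the mean of each of the 9 genes by at most 0.009 log2 units. Centring on the median leaves a mean over the 3 arrays unchanged by construction. Quantile and cyclic loess normalisation started from values that RMA had already brought to nearly the same distribution. These small shifts therefore say little about stability. Leaving out 1 of 3 arrays cannot move a mean by as much as its SD, so those means say nothing about stability. The count of genes above the limit on all 3 arrays was 8 as deposited, 8 with the array mean as limit, with at least 2 of 3 arrays, after cyclic loess normalisation and without any 1 replicate, and 5 with the upper quartile. The median SD was 0.120 as deposited, 0.119 to 0.129 under other normalisations, and from 0.063 (without replicate 3) to 0.161 (without replicate 1) with an array left out. The count with a range over 0.5 log2 units was 2 as deposited, 1 after quantile normalisation, 4 with a limit of 0.25, and 0 (without replicate 2 or 3) to 2 (without replicate 1). Fewer arrays tend to give smaller ranges by construction. Replicate 3 was farthest for 8 genes as deposited and after cyclic loess, and for 7 after quantile normalisation or centring on the median. It was lowest for 6 genes as deposited and after centring, and for 7 after quantile or cyclic loess normalisation, where TNC joined; these settings for the lowest array, and cyclic loess for the count above the median, were chosen after seeing the data. No paired analysis was possible because all arrays are of 1 condition. The summarised values hold no measure of signal over background.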
